A study of Mus musculus with 24 samples.

Results

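Expression of neutrophil-attracting CXC chemokines, of neutrophil receptors and of neutrophil protein genes was examined in the lung of naïve and house-dust mite (HDM)-challenged mice. The 10 genes were taken by symbol: the ligands Cxcl1, Cxcl2, Cxcl3, Cxcl5 and Cxcl15, the receptors Cxcr2 and Csf3r, and S100a8, S100a9 and Retnlg, out of 23891 genes in the table. All 10 were measured by RNA-Seq in the left lung lobe of 24 C57BL/6 mice, 1 library for each mouse. Naïve adult mice (n = 5) were 20 wk old and naïve aged mice (n = 5) were 80 wk old, both labelled as given saline. Aged mice of 80 wk received intranasal HDM, a common inhaled allergen, at 50 µg a dose for sensitization and challenge (HDM, n = 7). A further set of aged mice received the same HDM and, through the challenge, intraperitoneal doses of the glucocorticoid dexamethasone (Dex) of 4 mg/kg at 72 h intervals (HDM + Dex, n = 7). Collection of challenged lungs followed the final HDM dose by 24 h. No challenged adult mice and no mice given Dex alone were analysed here, so the effect of HDM is described at 80 wk only.

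Neutrophils leave the blood along gradients of CXC chemokines that carry the amino acids glutamate, leucine and arginine before their first cysteines. Macrophages, endothelium and epithelium release these ligands when sensing microbial products, IL-1, TNF or IL-17, and Cxcr2 on the neutrophil surface binds Cxcl1, Cxcl2, Cxcl3 and Cxcl5. Cxcl15, also called lungkine, is made by lung epithelium in the resting state. Csf3r is the receptor for G-CSF, the growth factor that drives neutrophil production. S100a8 and S100a9 form calprotectin, an abundant protein of the neutrophil cytosol rather than of its granules, and Retnlg encodes a secreted resistin-like protein of neutrophils and bone marrow. Glucocorticoids are known to lower chemokine production in many cells and to prolong neutrophil survival.

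The ligand genes lie side by side in the genome (GRCm38, GENCODE M21). On the plus strand of chromosome 5, Cxcl5 (chr5:90759360-90761624), Cxcl3 (chr5:90786103-90789600), Cxcl15 (chr5:90794534-90803067), Cxcl1 (chr5:90891241-90893115) and Cxcl2 (chr5:90903871-90905938) spanned 146.6 kb, together with the platelet chemokine genes Ppbp and Pf4 and the unclassified gene Gm43085. S100a8 (chr3:90668978-90670035) and S100a9 (chr3:90692632-90695721, minus strand) were 26.7 kb from end to end. Cxcr2 (chr1:74153989-74161246), Csf3r (chr4:126024550-126044440) and Retnlg (chr16:48872621-48874496) stood alone. Every one of the 10 is a protein-coding gene, and the values are given per gene, not per exon or transcript.

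Promoter sequences of 9 members were found in RefSeq (GRCm38.p6), and Cxcl5 was without an entry. The stretches from 100 to 31 bases before the start of Cxcl1, Cxcl2 and Cxcl3 are shown because these 3 inducible ligands carry a common element. Their longest common run of 11 bases, GGGAATTTCCC, is in capitals and has the form of a site for NF-κB, the factor that acts on many inflammatory genes.
Cxcl1: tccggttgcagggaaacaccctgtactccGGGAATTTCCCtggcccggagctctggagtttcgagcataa
Cxcl2: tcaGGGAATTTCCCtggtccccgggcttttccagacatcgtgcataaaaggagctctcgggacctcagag
Cxcl3: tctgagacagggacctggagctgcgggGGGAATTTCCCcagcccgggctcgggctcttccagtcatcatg

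These stretches lie on the plus strand at chr5:90891145-90891214 (Cxcl1), chr5:90903799-90903868 (Cxcl2) and chr5:90786001-90786070 (Cxcl3). The common run began 71 bases before the start in Cxcl1, 97 in Cxcl2 and 73 in Cxcl3, counted from the RefSeq starts, which are not the GENCODE gene starts given above. In the 250 bases before the start, on either strand, it was found in 14 of all 32851 promoters (0.0426%), these 3 included, and in no other of the 9 members. The run was taken from these 3 promoters, so its presence in them was fixed in advance, and only exact matches to it were counted. TATAAA was found in Cxcl3, Cxcl15 and S100a8, and in 12.4% of all promoters. The glucocorticoid response element, searched as GNACA and TGTNC with 3 bases between them, was found in none of the 9 windows, against 0.387% of all promoters. These matches are descriptions of letters in short windows, and no binding was measured.

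Values are CPM, in which each gene's reads are divided by all reads counted on genes and scaled to a common total. The estimated depth was 10.1 to 33.1 M reads per sample, at which 3 reads amount to 0.0906 to 0.298 CPM. The RNA of the signal recognition particle (7SL; Rn7s1 and Rn7s2) took a median of 16.2% of the total in adult and 10.9% in aged naïve lungs, against 28.1% with HDM alone and 26.8% with HDM + Dex, which lowers the CPM of every other gene. Xist was above the Y-linked Ddx3y in 5 of 5, 2 of 5, 2 of 7 and 4 of 7 mice of these groups, so age and sex overlap in the naïve comparison. The 2 HDM mice of this kind (replicates 6 and 7) were also the 2 with a 7SL share below 25%. Ly6g, the surface protein that defines mouse neutrophils, reached at most 1.33 CPM and was listed at 0 in 13 of 24 mice. It was at 0 in 3 of 10 naïve mice and above 0 in 4 of 14 challenged mice. Myeloperoxidase (Mpo) reached at most 0.785 CPM. In whole lung, fewer cells of a type and less RNA per cell cannot be told apart.

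Across the 10 genes the levels spanned a wide range. Per kb of the longest coding transcript, the mean in naïve aged lung was 254 CPM for Cxcl15, 147 for S100a9, 54.9 for S100a8, 17.7 for Retnlg, 13.4 for Csf3r and 4.64 for Cxcr2. The inducible ligands were lower, at 3.42 CPM per kb for Cxcl2, 1.25 for Cxcl5, 1.15 for Cxcl1 and 0.648 for Cxcl3. The resting lung therefore contained far more transcript of the epithelial ligand Cxcl15 than of the other ligands. The plot of values in each mouse shows all 10 genes on their own scales.

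**Figure D1:**
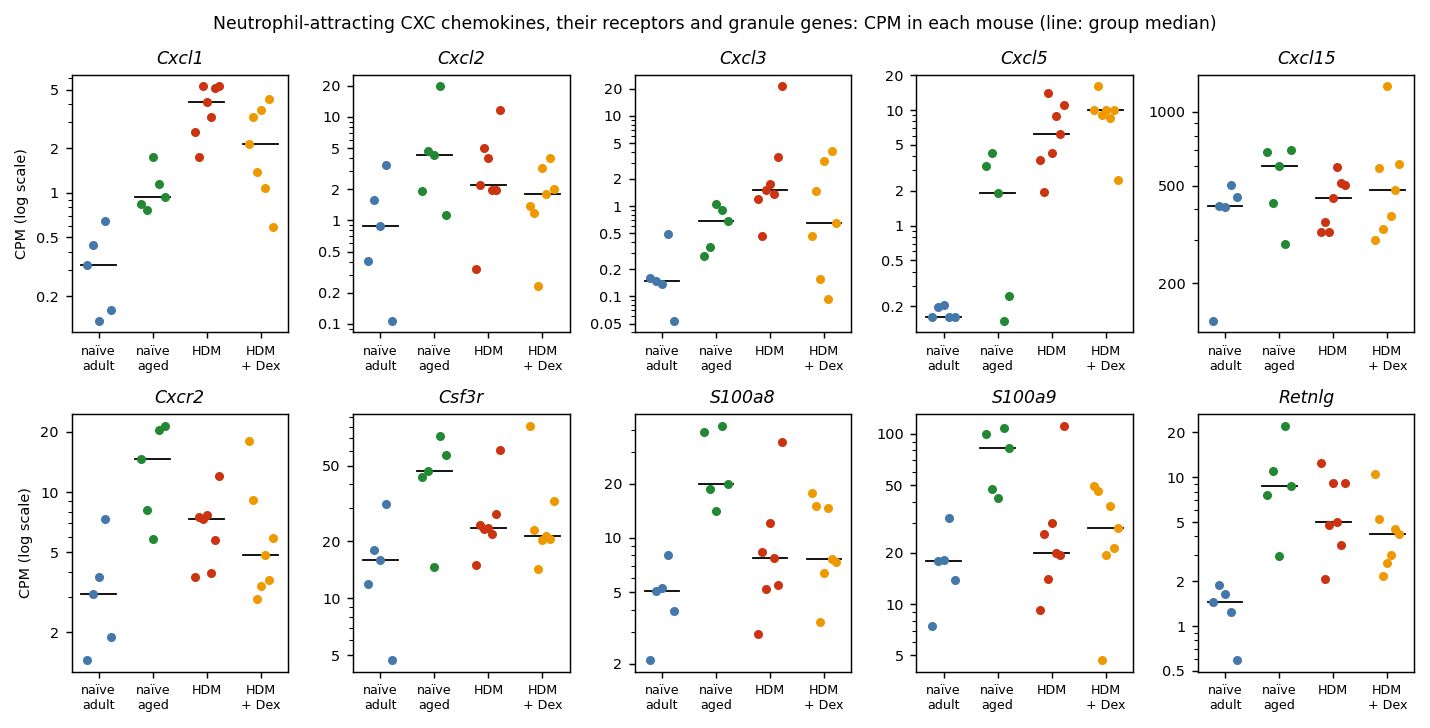
CPM of the 10 genes in each of the 24 mice, on a log axis of its own for each gene; points are mice in the order of their replicate numbers and the line is the group median. The 7 HDM mice lie at 1.74 to 5.27 CPM for Cxcl1, and the 5 naïve aged mice lie above all naïve adult mice for S100a8, S100a9 and Retnlg.

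To examine the effect of age without allergen, naïve aged lungs were compared with naïve adult lungs. The neutrophil genes were several-fold higher in the aged lung: S100a8, S100a9, Retnlg and Cxcr2 rose, whereas the 5 ligands did not pass the test. Thus 4 of the 10 genes rose, compared with 0.592% of the 17744 genes tested (0.654% called in either direction). The 10 log2 fold changes were all positive with a median of 1.44, against a median of 0.19 over all genes tested.

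S100a8 was at 2.10, 5.09, 5.26, 8.06 and 3.93 CPM in the 5 naïve adult mice and at 38.7, 18.7, 14.1, 42.1 and 19.8 CPM in the 5 naïve aged mice. S100a9, its partner in calprotectin, was at 7.43, 18.0, 18.3, 32.1 and 13.9 CPM in adult and at 99.6, 47.3, 42.4, 109 and 82.6 CPM in aged mice. Retnlg was at 1.45, 1.88, 1.64, 1.24 and 0.592 CPM in adult and at 7.59, 11.1, 2.95, 22.3 and 8.71 CPM in aged mice. For these 3 genes the lowest aged mouse was above the highest adult mouse. With Cxcl1, 4 of the 10 genes showed no overlap between the groups, compared with 3.09% of all genes.

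The log2 fold change, on the log2(CPM + 1) scale, was 2.19 for S100a8 (SE 0.31, limma adjusted p = 0.00203), a fold of 4.58. It was 2.06 for S100a9 (SE 0.33, adjusted p = 0.00522) and 2.09 for Retnlg (SE 0.34, adjusted p = 0.0062). Cxcr2, the chemokine receptor, went from 3.51 ± 2.34 CPM (SD, n = 5) in adult to 14.1 ± 7.04 CPM (SD, n = 5) in aged lung, a log2 fold change of 1.74 (SE 0.36, limma adjusted p = 0.0303). Its groups overlapped, since 1 adult mouse was at 7.35 CPM and 1 aged mouse at 5.85 CPM. Csf3r was at 16.4 ± 9.84 CPM in adult and 46.8 ± 21.1 CPM in aged lung (SD, n = 5 each; log2 fold change 1.502, limma adjusted p = 0.143; 0.0253 without naïve aged replicate 3).

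Among the ligands, Cxcl1 was at 0.323, 0.445, 0.137, 0.649 and 0.161 CPM in adult and at 0.847, 0.770, 1.74, 1.16 and 0.940 CPM in aged mice. The groups did not overlap, but the log2 fold change of 0.63 did not pass the test (limma adjusted p = 0.178). Cxcl5 was at 0.161 to 0.205 CPM in the adult mice, about the value of 3 reads, and at 0.151 to 4.27 CPM in the aged mice, of which 3 were at 1.93 CPM or more and the other two at 0.151 and 0.247 CPM. Its log2 fold change was 1.08 and that of Cxcl2 was 1.37 (limma adjusted p = 0.228 and 0.291). Of the alternatives run, Cxcl5 passed only with sample quality weights (limma adjusted p = 0.0342) and Cxcl2 only with the replicate block (0.00914). Cxcl3 and Cxcl15 had log2 fold changes of 0.46 and 0.54 (limma adjusted p = 0.384 and 0.542). Adding 1 CPM before the log compresses changes at values near or under 1 CPM. The ratio of mean CPM, aged over adult, was 3.18 for Cxcl1, 4.93 for Cxcl2, 3.34 for Cxcl3, 11.1 for Cxcl5 and 1.41 for Cxcl15. With 0.1 CPM added instead, the log2 fold change of Cxcl5 was 2.13 and did not pass (limma adjusted p = 0.265).

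Since each of the adult mice had Xist above Ddx3y, the comparison was repeated in such mice alone, of which the naïve aged group held 2. There, S100a8 was the one gene of the 10 that passed (log2 fold change 2.20, limma adjusted p = 0.022), and the values were 2.002 for S100a9 (0.0619), 2.05 for Retnlg (0.0797) and 1.56 for Cxcr2 (0.233). The call of Cxcr2 was also lost without naïve aged replicate 1, 4 or 5, or without naïve adult replicate 1, 2, 3 or 5 (limma adjusted p = 0.0587 to 0.0928), and with no filter (0.0784), quantile normalization (0.0569) or the 7SL covariate (0.136). That of S100a9 was lost with the challenged groups in the fit (limma adjusted p = 0.0823).

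Other genes of mature neutrophils were read, in the same mice, from a list that does not hold the 10 genes. The list was chosen with earlier results of these data known, so its counts are a description and no independent check. Of its 16 genes tested, 5 rose and none fell with age, compared with 0.592% of all genes tested that rose. The median log2 fold change was 1.26 against 0.19 over all genes. The collagenase Mmp8 had a log2 fold change of 2.16, the C-type lectin receptor Clec4d of 1.91 and the decoy IL-1 receptor Il1r2 of 1.69 (limma adjusted p = 0.00696, 0.00626 and 0.0311). Of 13 inducers and signal regulators of the chemokines tested, none was called (limma; Il1b 1.48, adjusted p = 0.13; Tnf 0.59, adjusted p = 0.347; Il6 0.11, adjusted p = 0.867). Of 9 granule protein genes tested, 2 rose, Mmp8 and Mmp9. Both are also on the mature neutrophil list, and no other granule gene was called. Of 5 eosinophil genes, Prg2 rose, and the marker lists of monocytes, alveolar macrophages, type 2 and club cells, heart muscle, red cells and platelets held no called gene.

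**Figure D2:**
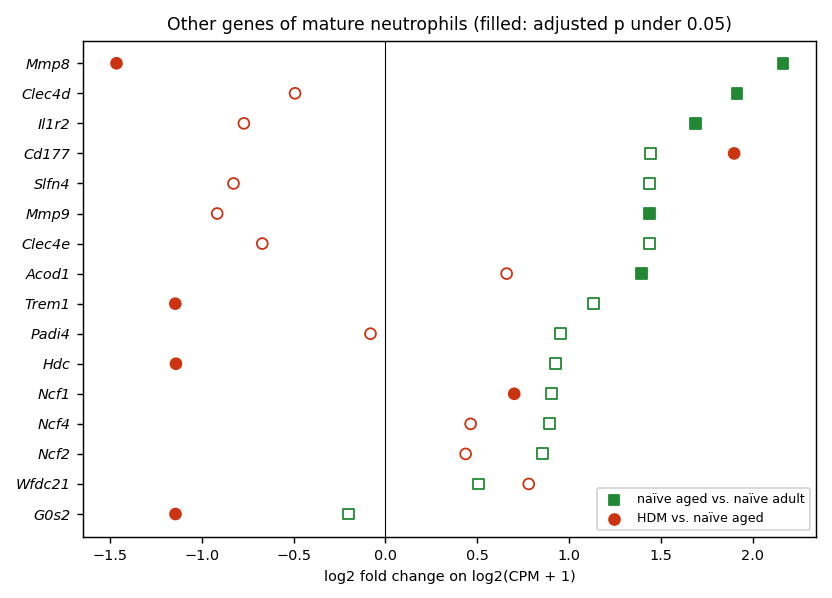
log2 fold changes, on log2(CPM + 1), of the 16 tested genes of the mature neutrophil list in naïve aged vs. naïve adult (squares) and HDM vs. naïve aged lungs (circles), with filled symbols for an adjusted p under 0.05. The 5 filled squares are all to the right of 0, and of the 6 filled circles 4 are to the left. With age, 0.592% of all genes tested were called higher. With HDM, 21.2% of all genes tested were called lower and 4.04% higher. Both comparisons use the same naïve aged mice.

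Next, HDM-challenged aged lungs were compared with naïve aged lungs, from the same 5 naïve aged mice as in the age comparison. The ligands Cxcl1 and Cxcl5 rose, and S100a8 and S100a9 fell, whereas the other 6 genes did not pass the test. Thus 4 of the 10 genes were called, compared with 25.3% of all genes tested, of which 2 rose (4.04% of all genes) and 2 fell (21.2% of all genes, about the same share as among the 10). The median log2 fold change was 1.06 over the 5 ligands and −0.87 over the receptors, S100a8, S100a9 and Retnlg, against −0.23 over all genes tested.

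Cxcl1 was at 0.847, 0.770, 1.74, 1.16 and 0.940 CPM in the naïve aged mice and at 2.57, 1.74, 5.27, 4.15, 3.25, 5.09 and 5.26 CPM in the 7 HDM mice. All 35 pairs of mice were higher in HDM, although the highest naïve aged mouse and the lowest HDM mouse were nearly tied, both at 1.7405 CPM when rounded. The mean went from 1.09 ± 0.39 CPM (SD, n = 5) to 3.90 ± 1.42 CPM (SD, n = 7), with a log2 fold change of 1.19 (SE 0.28, limma adjusted p = 0.00437). Cxcl1 was the one gene of the 10 without overlap, by the margin of that near tie. No overlap was seen in 8.71% of all genes. In the 2 HDM mice with a 7SL share below 25%, like all naïve aged mice, Cxcl1 was at 5.09 and 5.26 CPM.

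Cxcl5, an epithelial ligand of Cxcr2, was at 3.25, 4.27, 1.93, 0.151 and 0.247 CPM in naïve aged and at 3.68, 1.94, 13.9, 4.22, 8.83, 6.16 and 11.0 CPM in HDM mice. Of the HDM mice, 4 were above every naïve aged mouse and the other 3 were among the naïve values. The log2 fold change was 1.51 (SE 0.43, limma adjusted p = 0.0137). With the 7SL share as a covariate it was 1.18 and did not pass (adjusted p = 0.174).

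Cxcl3 was at 0.282 to 1.06 CPM in naïve aged and at 1.198, 0.469, 1.49, 1.78, 1.35, 3.50 and 21.3 CPM in HDM mice. HDM replicate 7 stood far above the others, and 32 of 35 pairs were higher in HDM, but the log2 fold change of 1.06 did not pass the test (SE 0.49, limma adjusted p = 0.115). With sex as a covariate it was 1.19 and passed (adjusted p = 0.0365). Cxcl2 was at 1.14 to 19.8 CPM in naïve aged and at 0.342 to 11.7 CPM in HDM mice, with a log2 fold change of −0.41 (adjusted p = 0.556). Cxcl15 was at 541 ± 179 CPM (SD, n = 5) in naïve aged and 437 ± 106 CPM (SD, n = 7) in HDM mice (log2 fold change −0.27, limma adjusted p = 0.507). Of the 3 ligands with the common promoter run, one was thus called, and the other two had estimates of opposite sign that did not pass.

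S100a9 was at 99.6, 47.3, 42.4, 109 and 82.6 CPM in naïve aged and at 9.24, 25.8, 14, 30.1, 20.0, 19.5 and 112 CPM in HDM mice. S100a8 was at 38.7, 18.7, 14.1, 42.1 and 19.8 CPM in naïve aged and at 2.91, 8.30, 5.17, 12.1, 7.73, 5.47 and 33.9 CPM in HDM mice. For both genes 6 of 7 HDM mice were below every naïve aged mouse, and HDM replicate 7 was among or above the naïve values. For S100a9 these 6 were at 9.24 to 30.1 CPM, against 7.43 to 32.1 CPM in naïve adult mice. For S100a8 they were at 2.91 to 12.1 CPM, against 2.10 to 8.06 CPM in naïve adult mice. S100a8 had a log2 fold change of −1.46 (SE 0.43, limma adjusted p = 0.0168) and S100a9 of −1.52 (SE 0.50, limma adjusted p = 0.0291). Without HDM replicate 7, these were −1.78 and −1.89 (limma adjusted p = 0.0017 and 0.00329).

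The fall of S100a9 depended on scaling. After median-of-ratios rescaling, S100a9 was at −1.28 (limma adjusted p = 0.0654) and S100a8 at −1.22 (adjusted p = 0.0461), and with the 7SL share as a covariate neither passed (S100a8 −1.17, adjusted p = 0.18; S100a9 −0.94, adjusted p = 0.354). Without naïve aged replicate 1 or 4 neither passed (adjusted p = 0.0505 to 0.0766), and S100a9 was also lost without naïve aged replicate 5 or HDM replicate 1, 3 or 5 (adjusted p = 0.0505 to 0.0654). In the 2 HDM mice with a 7SL share below 25%, S100a9 was at 19.5 and 112 CPM, and the part of the 7SL share in the result was not otherwise tested.

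The receptors and Retnlg did not pass. Cxcr2 was at 5.85 to 21.5 CPM, median 14.7, in naïve aged and at 3.77 to 12.1 CPM, median 7.36, in HDM mice (log2 fold change −0.87, SE 0.36, limma adjusted p = 0.0784). It passed without naïve aged replicate 3, HDM replicate 7 or HDM + Dex replicate 1 (limma adjusted p = 0.0404 to 0.0421). Csf3r was at 46.8 ± 21.1 CPM (SD, n = 5) and 28 ± 14.8 CPM (SD, n = 7), with a log2 fold change of −0.67 (limma adjusted p = 0.186; 0.0455 without naïve aged replicate 3). Retnlg was at 10.5 ± 7.20 and 6.57 ± 3.71 CPM (SD, n = 5 and n = 7), with a log2 fold change of −0.54 (limma adjusted p = 0.313).

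Of the 16 other mature neutrophil genes tested, 2 rose and 4 fell with HDM, with a median log2 fold change of −0.58. Over all genes tested, 4.04% rose and 21.2% fell, with a median of −0.23. The share of the list that fell was thus near that of all genes. G0s2, an inhibitor of lipolysis, was at −1.14, the histamine-forming enzyme Hdc at −1.14 and Mmp8 at −1.46 (limma adjusted p = 0.00196, 0.0102 and 0.0104). The neutrophil surface protein Cd177 was among the 2 that rose, at 1.90 (limma adjusted p = 0.00526). Of 9 granule protein genes tested, 1 fell, Mmp8, which is on both lists, and 2 rose. The 2 were Chil3, at 3.02, and lipocalin Lcn2, at 2.51 (limma adjusted p = 0.000376 and 0.000509), which macrophages and airway epithelium, respectively, also make. In which cells the named genes rose or fell was not tested.

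Of the 13 tested inducers and signal regulators of the chemokines, 2 rose and 1 fell with HDM. The RNase Zc3h12a, which degrades cytokine mRNA, had a log2 fold change of 0.92 and the growth factor Csf2 of 1.14, and the NF-κB inhibitor Nfkbia was at −0.57 (limma adjusted p = 0.000628, 0.0051 and 0.0246). Il6 was at 0.96, Tnf at 0.17 and Il1b at −0.37, none of them called (limma adjusted p = 0.079, 0.776 and 0.553). Il17a was listed at 0 in all 10 naïve mice and above 0 in 12 of 14 challenged mice, with at most 2.31 CPM. Il17a was below the filter on low values, and without the filter it did not pass (log2 fold change 0.59, adjusted p = 0.0879). Csf3 and Elane were not analysed here.

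Markers of other cells moved in the same comparison. All 7 heart muscle genes tested fell, and the summed level of the list was 578 to 1083 CPM in naïve aged and 22.9 to 442 CPM in HDM mice. Of 4 club cell genes, 3 fell (summed level 4666 to 6672 CPM and 280 to 2754 CPM), and of 5 platelet genes, 2 fell (40.3 to 73.5 CPM and 26.8 to 80.6 CPM), among them Ppbp of the chemokine cluster. Of 5 eosinophil genes, 2 rose (7.96 to 12.4 CPM and 10.6 to 84.0 CPM), and in the lists of monocytes and alveolar macrophages, Chil3 alone rose. No red cell or type 2 alveolar cell gene was called. Their part in the changes of the chemokine and neutrophil genes was not tested.

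**Figure D3:**
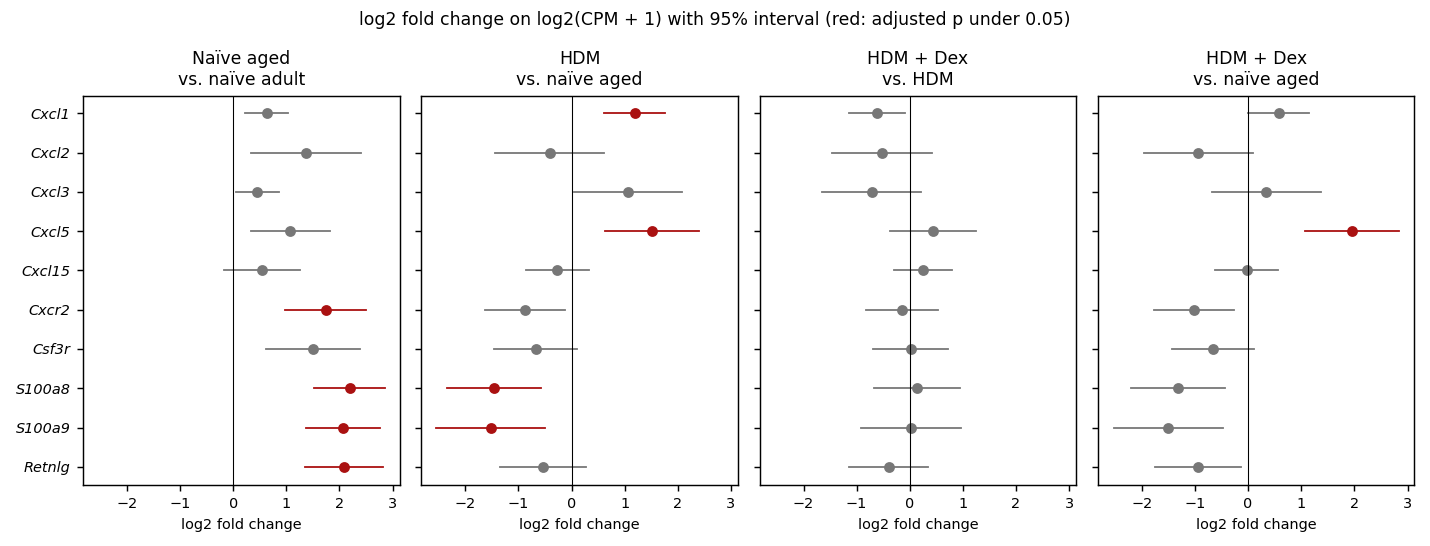
log2 fold change of the 10 genes, on log2(CPM + 1), with its 95% confidence interval in the 4 comparisons; red marks an adjusted p under 0.05. With age the called genes are Cxcr2, S100a8, S100a9 and Retnlg, with HDM Cxcl1 and Cxcl5 (higher) and S100a8 and S100a9 (lower), and in HDM + Dex vs. HDM there is none.

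To determine whether Dex altered these genes during challenge, HDM + Dex lungs were compared with HDM lungs. None of the 10 genes was called by limma, compared with 0.964% of all genes tested. An unadjusted p under 0.05 was found for 1 of the 10 (Cxcl1), and for 2389 of all 17744 genes tested. Cxcl1 was at 2.13, 3.28, 1.39, 3.65, 1.09, 4.31 and 0.590 CPM in HDM + Dex mice, with 3 mice below every HDM mouse and 4 among them. Its log2 fold change was −0.61, with a 95% interval of −1.14 to −0.09 (unadjusted p = 0.024, limma adjusted p = 0.269).

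Cxcl2 and Cxcl3 had log2 fold changes of −0.52 (95% interval −1.46 to 0.41) and −0.72 (−1.65 to 0.22). Cxcl5 was at 10.02, 16.1, 9.03, 10.01, 8.46, 10.1 and 2.49 CPM in HDM + Dex mice, of which replicate 2 was above every HDM mouse and the other 6 were within the HDM range. Its log2 fold change was 0.44 (95% interval −0.37 to 1.25). Cxcl15 was at 0.24 (−0.30 to 0.79), with one HDM + Dex mouse, replicate 4, at 1271 CPM.

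S100a9 was at 49.3, 46.2, 4.71, 19.4, 38, 21.3 and 28.1 CPM and S100a8 at 17.8, 15.1, 3.40, 6.42, 14.6, 7.61 and 7.34 CPM in HDM + Dex mice. For S100a8 all 7 were within the range of the HDM mice, and for S100a9 all but replicate 3, which was lower. The log2 fold change was 0.02 for S100a9 (95% interval −0.92 to 0.96) and 0.13 for S100a8 (−0.68 to 0.94), so that changes of close to 2-fold in either direction remained within the intervals. Cxcr2 was at −0.15 (−0.83 to 0.53), Csf3r at 0.01 (−0.70 to 0.72) and Retnlg at −0.40 (−1.14 to 0.34).

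No gene of the pathway and marker lists was called in this comparison. Of 121 tested, 22 had an unadjusted limma p under 0.05, against 2389 of all 17744 genes tested. The 8 glucocorticoid targets, read as a check on the Dex label, were among those without a call, with a median log2 fold change of −0.20. Tsc22d3 (GILZ), the best known of them, was at 96.5 ± 19.5 CPM in HDM and 83.2 ± 23.4 CPM in HDM + Dex lungs (SD, n = 7 each; log2 fold change −0.23, limma adjusted p = 0.672). The time from the last Dex dose to collection is not given in the sources used here.

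Finally, HDM + Dex lungs were compared with naïve aged lungs. Of the 10 genes, Cxcl5 rose (1 of 10, compared with 1.89% of all genes tested and 0.445% in this direction) and none fell. The mean was 9.45 CPM in HDM + Dex and 1.97 CPM in naïve aged lungs, a log2 fold change of 1.95 (SE 0.43, limma adjusted p = 0.0265), and 6 of 7 HDM + Dex mice were above the highest naïve aged mouse. The call was lost with the 7SL share as a covariate (1.69, adjusted p = 0.227) and without naïve aged replicate 3, 4 or 5 or HDM + Dex replicate 1, 2 or 6 (adjusted p = 0.0546 to 0.0797).

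In the same comparison Cxcl1 was at 0.58 (limma adjusted p = 0.234), S100a8 at −1.32 (0.103), S100a9 at −1.50 (0.112), Cxcr2 at −1.02 (0.13) and Retnlg at −0.94 (0.181). S100a8 passed in 4 of 32 alternatives, among them that without HDM replicate 7 (limma adjusted p = 0.0495), and S100a9 in 3 of 32. The log2 fold changes of S100a8 and S100a9 were thus −1.46 and −1.52 without Dex and −1.32 and −1.50 with Dex. Both pairs of values came from the same 5 naïve aged mice, and in the main fit only those without Dex passed the test. In the direct comparison of HDM + Dex with HDM, neither gene was called. Of the other list genes, Chil3 (2.40), Cd177 (1.92) and Zc3h12a (0.59) rose, and Nfkbia (−0.78) and G0s2 (−0.92) fell (limma adjusted p = 0.0111, 0.0353, 0.049, 0.0316 and 0.0447). Of the 8 glucocorticoid targets, 5 fell and none rose, with a median log2 fold change of −1.07; in HDM without Dex vs. the same naïve aged mice, 6 fell and none rose, with a median of −0.94.

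The 10 genes also varied among mice of the same group. After group means were removed, Pearson correlations of log2(CPM + 1) over the 24 mice were highest among the neutrophil genes. S100a8 and S100a9 had an r of 0.95, Cxcr2 and Csf3r of 0.84, and Cxcr2 and S100a9 of 0.78. Cxcl1 and Cxcl3 had an r of 0.69 and Cxcl1 and Cxcl5 of 0.53, whereas Cxcl1 and S100a8 had an r of 0.16 and Cxcl1 and Cxcr2 of 0.08. The ligands did not form a set of their own: Cxcl2 had an r of 0.57 with S100a8, 0.54 with S100a9 and 0.48 with Csf3r, against 0.58 with Cxcl3, 0.44 with Cxcl1 and 0.08 with Cxcl5, and Cxcl3 had an r of 0.45 with S100a9 and 0.28 with Cxcl5. Retnlg was less close to the other neutrophil genes (r = 0.37 to 0.59), and Cxcl15 had an r of at most 0.35 with any other. The mice share library preparation and the 7SL share, and these values are descriptions.

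**Figure D4:**
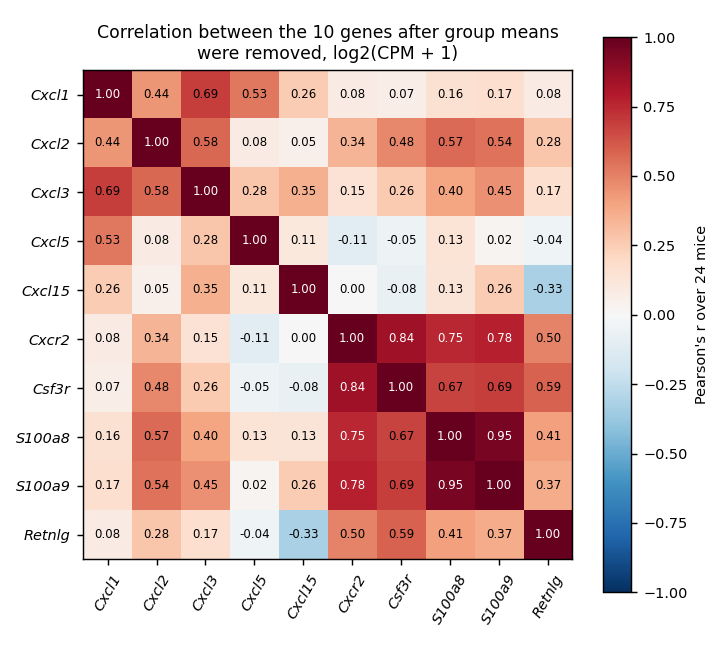
Pearson's r between the 10 genes over 24 mice, on log2(CPM + 1) after group means were removed. Cxcr2, Csf3r, S100a8 and S100a9 form a block with r of 0.67 to 0.95, and r between Cxcl1 and these 4 genes is 0.07 to 0.17.

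The genes outside the set with the closest pattern differed between ligands and neutrophil genes. By the same measure over 24 mice, Cxcl1 was closest to the acute-phase gene Saa3 (r = 0.83), Cxcl2 to the cytokine Osm (r = 0.81) and to the NF-κB regulators Nfkbiz (r = 0.80) and Tnfaip3 (r = 0.77), and Cxcl3 to Il1a (r = 0.83). S100a8 and S100a9 were closest to Clec4d (r = 0.83 each), Cxcr2 to Mxd1 (r = 0.89), Csf3r to Il1b (r = 0.89) and Retnlg to B430306N03Rik (r = 0.82). Cxcl15 was closest to Gm43085, the gene that begins next to its end (r = 0.94), and to Lamp3, a protein of the lamellar bodies of type 2 alveolar cells (r = 0.92). Cxcl5 had no pattern as close, with r = 0.76 for the small RNA gene Gm25939.

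Placed on both axes at once, the ligand Cxcl1 and the neutrophil gene S100a9 separated the groups in different directions. Naïve adult mice were low in both, naïve aged mice were at 0.770 to 1.74 CPM of Cxcl1 and 42.4 to 109 CPM of S100a9, and 6 of 7 HDM mice were at 1.74 to 5.27 CPM of Cxcl1 and 9.24 to 30.1 CPM of S100a9. HDM replicate 7 was high in both, at 5.26 and 112 CPM, and had the greatest estimated depth, 33.1 M reads. HDM + Dex mice lay across the range, from 0.590 to 4.31 CPM of Cxcl1.

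**Figure D5:**
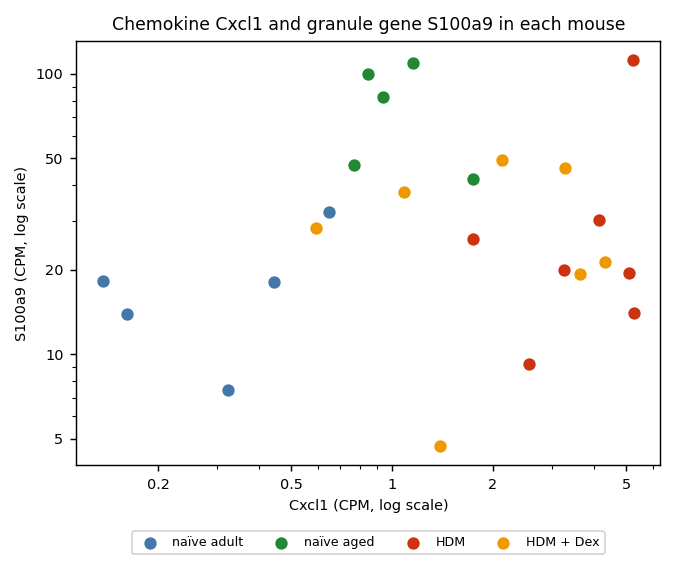
Cxcl1 against S100a9 in each of the 24 mice, both in CPM on log axes, with colours for the 4 groups. Naïve aged mice sit high in the middle and 6 of 7 HDM mice at the lower right, with HDM replicate 7 at 5.26 and 112 CPM in the upper right.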

How the data were processed

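Lung RNA of 24 mice (5 naïve adult, 5 naïve aged, 7 HDM, 7 HDM + Dex) was analysed, with groups taken from the sample labels. By the study's methods, stranded mRNA libraries were sequenced as paired ends and processed with the Picard-STAR-limma pipeline. The submitters' processing notes name FastQC, STAR, DESeq2 and mm9, whereas gene starts in the table matched GRCm38 (GENCODE M21) for 23140 of 23275 symbols found there. The authors deposited one table of CPM with 0.0001 added to each value, which was subtracted. Gene filters, strand handling and the treatment of reads that fit several genes are not given in the sources used here. Depth was estimated from the spacing of low CPM values. As only 80.7% to 85.4% of these were whole multiples of the spacing (tolerance 0.05), no count test was run.

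Differential expression used limma 3.58.1 (R 4.3.3) on log2(CPM + 1) for the 17744 genes that averaged 1 CPM or more over the 24 mice, with trended eBayes and Benjamini-Hochberg adjustment over all of them at 0.05. The 19 aged mice were fitted together for 3 contrasts and the 10 naïve mice for age. All 10 members passed the filter. Whether mice of a group shared a cage or litter is not given. The members and gene lists were chosen with earlier results of these data known. From each list, up to 3 called genes with the lowest adjusted p are named per comparison, with Csf3, Il17a, Il1b, Tnf, Il6, Ly6g, Mpo and Elane always. Tsc22d3 was named outside this rule, after its values were seen. Of 156 list genes, 10 were not analysed here. The alternatives were other pseudocounts (0.1, 5), filters, scalings and fits, a replicate block, covariates, a log2 fold change of at least 1, and leaving out each mouse. The limma fit was checked on simulated tables with known changes. Other steps used Python 3.11.15, pandas 2.3.3, scipy 1.17.1, numpy 2.4.6 and matplotlib 3.10.9.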

Additional observations from a re-analysis of the deposited data

Results flagged for a closer look

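Among the 40 combinations of gene and group, 5 held a mouse set apart from the rest of its group on the log2(CPM + 1) scale by Dixon's criterion, where chance alone gives about 2. Cxcl3 was at 21.3 CPM in HDM replicate 7, compared with 0.469 to 3.50 CPM in the other HDM mice. Cxcl3 was also at 0.487 CPM in naïve adult replicate 4, above 0.0538 to 0.161 CPM in the others. Cxcl5 was at 2.49 CPM in HDM + Dex replicate 7, below 8.46 to 16.1 CPM in the others. S100a9 was at 4.71 CPM in HDM + Dex replicate 3, below 19.4 to 49.3 CPM. Cxcl15 was at 141 CPM in naïve adult replicate 1, the mouse with the highest 7SL share (42.0%), below 411 to 505 CPM. After median-of-ratios rescaling 3 combinations were set apart, 2 of them the same: Cxcl3 in HDM replicate 7 and Cxcl5 in HDM + Dex replicate 7.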

How the results depend on the processing

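The direction of every call among the 10 genes held under all alternatives run. Cxcl1 with HDM passed in 31 of 31, Cxcl5 in 31 of 32, S100a8 in 29 of 32 and S100a9 in 22 of 32. Of the 10 genes, those called in HDM vs. naïve aged numbered 1 with the 7SL covariate. In HDM + Dex vs. naïve aged they numbered 2 with only the groups compared in the fit, 3 with quality weights, 2 with the replicate block, 0 with the 7SL covariate and 3 with the sex covariate, and for age 1 in females only. Leaving out 1 mouse gave 2 to 6 called members for HDM, 0 to 0 for HDM + Dex vs. HDM, 0 to 2 for HDM + Dex vs. naïve aged and 3 to 5 for age.

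Over all genes, HDM vs. naïve aged gave 4482 calls (717 higher, 3765 lower), which were 1930 higher and 2051 lower after median-of-ratios rescaling, 1077 with a log2 fold change of at least 1, 7876 with weights and 1571 with the 7SL covariate. HDM + Dex vs. HDM gave 171 calls, and 108 with the fold limit, 83 without a filter, 506 rescaled, 526 quantile-normalized, 438 without 7SL and rRNA genes, 1 with only the groups compared in the fit, 611 weighted, 563 with the 7SL and 293 with the sex covariate. HDM + Dex vs. naïve aged gave 335, and under the same settings 138, 213, 167, 179, 189, 519, 5471, 34 and 1929, with 221 without trend. Age gave 116, and 67 at 5 CPM, 183 rescaled, 198 without 7SL and rRNA genes, 65 with all 24 mice in the fit and 784 weighted. Leaving out 1 mouse gave 2954 to 5338, 2 to 544, 66 to 772 and 74 to 154. Outlying mice numbered 3 after rescaling.

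Replicate numbers are shared between groups, and of 22 same-numbered pairs of mice 3 had a correlation above 0.1 (−0.24 to 0.41). Pairs with different numbers were not examined, so whether the numbers mark a shared batch or litter was not tested. The main fit took the mice as unpaired. The replicate block gave 5644 calls for HDM vs. naïve aged, 168 for age, 8 for HDM + Dex vs. HDM and 898 for HDM + Dex vs. naïve aged. The cause of these differences was not tested. Depth limited Cxcl1, Cxcl3 and Cxcl5 in naïve adult mice, where values were near that of 3 reads.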

Other observations

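Chemokines of other receptors also differed. Of 15 other CXC chemokine and receptor genes tested, 4 rose and none fell with age: the B-cell attractant Cxcl13 (log2 fold change 1.79), the interferon-induced T-cell attractants Cxcl9 (2.04) and Cxcl10 (1.11), and their receptor Cxcr3 (1.37), with limma adjusted p of 0.00522, 0.024, 0.0311 and 0.0381. Cxcr3 was named after its values were seen. With HDM, the membrane-bound chemokine Cxcl16 (0.98) and the chemokine scavenger Ackr1 (0.84) rose, and Ppbp (−1.54) and Cxcl14 (−1.17) fell, with limma adjusted p of 0.00585, 0.0163, 0.00315 and 0.00421. Ackr1 was named after its values were seen.

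Of 17 genes of neutrophil adhesion and recruitment tested, 3 rose with HDM. The receptor for platelet-activating factor, Ptafr, was at 7.17 ± 2.32 CPM (SD, n = 5) in naïve aged and 25.4 ± 11.7 CPM (SD, n = 7) in HDM lungs, a log2 fold change of 1.62. The integrin chain Itgb2 had a log2 fold change of 1.29 (limma adjusted p = 0.000509 and 0.00182). With age, none of the 17 was called by limma.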
